A study of Mus musculus with 24 samples.

Results

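The 36 genes described here encode aminoacyl-tRNA synthetases, 20 of them cytosolic and 16 mitochondrial enzymes. They were taken by symbol from the count tables of 3 mouse mammary carcinoma lines and are 36 of the 24034 symbols that all 3 tables hold. All 36 passed the filter on low counts in every line. The 4T07, D2A1 and EMT6 cells had been transduced with mCherry and with mVenus-p27K, a fluorescent reporter that builds up in cells that have left the cell cycle. In each line, 250000 cells were placed in a fat pad of female Balb/cJ mice, and tumours were taken on day 14. Sorting by the reporter gave a p27K high library of quiescent tumour cells (called QCC in the labels) and a p27K negative library of proliferating cells from the same tumour. There were 4 tumours per line, so that 4T07, D2A1 and EMT6 each had 4 p27K high and 4 p27K negative libraries, 24 in all, and all groups carry both reporters in an untreated host. The lines were sequenced in separate runs, so a difference between lines and a difference between runs cannot be told apart. The 4T07 count table also differs, with 24982 entries named in capitals against 49316 in D2A1 and in EMT6. Comparisons of 4T07 with the other lines therefore also compare gene tables. The labels name a CD45 stain and DAPI but not the gates, and whether a line is 1 clone is not given in the sources used here.

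Aminoacyl-tRNA synthetases attach each amino acid to its transfer RNA and so supply translation. Cytosol and mitochondria mostly use separate enzymes, all encoded in the nucleus, although Gars (glycine) and Kars (lysine) each supply both compartments from a single gene. Eprs joins the glutamate and proline enzymes in one protein, Farsa and Farsb are the subunits of the cytosolic phenylalanine enzyme, and several cytosolic enzymes sit in a multi-synthetase complex held by Aimp1, Aimp2 and Eef1e1. Many cytosolic synthetase genes are targets of ATF4, the transcription factor of the amino acid response, and Wars is also induced by interferon.

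ATF4 binds, together with C/EBP proteins, a short element whose core is written TGATGNAA, and MYC and its partners bind the E-box CACGTG. Promoter windows, 250 bases before to 50 bases after the start site in the RefSeq annotation of GRCm38.p6, were found for 27 of the 36 genes, 13 cytosolic and 14 mitochondrial. A gene was counted if any of its windows held the motif. The ATF4 core, searched on both strands, was in 5 of the 13 cytosolic genes (38.5%) and in none of the 14 mitochondrial genes. Of all genes with a window, 1219 of 27025 held it (4.51%). The E-box, which reads the same on both strands, was in 4 of 13 cytosolic genes (30.8%) and in 1 of 14 mitochondrial genes (7.14%). It was in 8.09% of all genes with a window. For the ATF4 core, none of 14 mitochondrial genes is near the share of all genes. The stretches that hold the core in the 5 cytosolic genes are shown on the strand of each gene. The ATF4 core (as TGATGNAA or its reverse complement TTNCATCA) and the E-box are in capitals. Aars, for alanine, has 2 cores and an E-box at chr8:111033686-111033868 on the plus strand, Gars has 1 core at chr6:55037961-55037988 on the plus strand, and Iars, for isoleucine, has 1 of each at chr13:49682051-49682154 on the plus strand. Tars, for threonine, has 1 of each at chr15:11399629-11399683 on the minus strand, and Yars, for tyrosine, has 1 core at chr4:129189896-129189923 on the plus strand.
Aars: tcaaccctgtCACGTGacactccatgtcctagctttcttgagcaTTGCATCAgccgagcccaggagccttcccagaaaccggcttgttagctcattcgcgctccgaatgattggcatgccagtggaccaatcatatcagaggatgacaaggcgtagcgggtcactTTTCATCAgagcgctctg
Gars: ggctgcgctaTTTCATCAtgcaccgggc
Iars: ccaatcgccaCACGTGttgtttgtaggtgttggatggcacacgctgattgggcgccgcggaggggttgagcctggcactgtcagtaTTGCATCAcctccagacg
Tars: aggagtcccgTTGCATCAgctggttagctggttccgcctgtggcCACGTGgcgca
Yars: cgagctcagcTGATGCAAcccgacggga
A match of letters describes these windows and is not a measured binding site.

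Library depth ranged over 27887221 to 45460880 counts in the p27K high and 28961831 to 35197694 in the p27K negative libraries of 4T07, 6727594 to 20174767 in the p27K high and 1335433 to 15641189 in the p27K negative libraries of D2A1, and 13769682 to 20142013 in the p27K high and 16988365 to 17508301 in the p27K negative libraries of EMT6. The D2A1 p27K negative libraries of tumours 1, 2 and 3 were the shallow ones, and the lowest count of any synthetase gene in any library was 7, for Pars2 in one of them. The 4T07 p27K high library of tumour 2 stood apart, with 13500 genes detected against 15094 or more in the other 4T07 libraries. All 8 cell cycle markers fell in the p27K high libraries of every line, with median log2 changes of -6.17 in 4T07, -5.09 in D2A1 and -5.12 in EMT6, and Cdkn1b (p27) rose in each, a count that can include reads of the p27K reporter. The 6 mammary epithelial markers (keratins, Epcam and Cdh1) were summed in CPM (counts scaled for depth between libraries). The sums were 431 to 571 CPM in p27K high and 565 to 686 CPM in p27K negative libraries of 4T07. In D2A1 they were 92.8 to 203 CPM in p27K high, where Krt5 was at 0 in all 4 libraries, and 62.5 to 454 CPM in p27K negative. In EMT6 they were 603 to 859 CPM in p27K high and 749 to 1040 CPM in p27K negative libraries. Of these markers, 2 of 4 tested fell in 4T07, 1 of 2 in D2A1 and 1 of 4 in EMT6, and none was called as rising. T and NK cell markers summed to at most 3.11 CPM in any library. The 6 neutrophil markers summed to 18.3 to 58.5 CPM in p27K high and 58.6 to 73.0 CPM in p27K negative libraries of 4T07, where 3 of 5 tested fell. They summed to at most 8.81 CPM in any library of D2A1 or EMT6, where the 1 gene tested rose in each line. The 15 macrophage and monocyte markers summed to 189 to 219 CPM in the p27K high and 665 to 1473 CPM in the p27K negative libraries of 4T07, where all 15 fell. Their sums were 142 to 181 CPM in p27K high and 77.5 to 138 CPM in p27K negative libraries of D2A1, and 47.7 to 61.2 CPM in p27K high and 33.6 to 48.5 CPM in p27K negative libraries of EMT6. The 8 fibroblast genes summed to 1513 to 2296 CPM in p27K high and 576 to 759 CPM in p27K negative libraries of 4T07, where 3 of 7 tested rose and 1 fell. In D2A1 they summed to 884 to 1097 CPM in p27K high and 678 to 866 CPM in p27K negative libraries (2 of 7 rose and 3 fell), and in EMT6 to 5904 to 7913 CPM in p27K high and 4639 to 6311 CPM in p27K negative libraries (6 of 6 rose). The 5 endothelial genes summed to at most 24.5 CPM in any library, and 3 of 4 tested fell in 4T07 and 2 of 2 in D2A1. The part of these cell types in the changes described next was not tested.

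Per kilobase of exon, the cytosolic genes were the more abundant class in every line. Their median level over all libraries of a line was 48.5 CPM per kb in 4T07, 53.9 in D2A1 and 61.1 in EMT6, against 5.16, 7.94 and 5.02 CPM per kb for the mitochondrial genes. Wars, for tryptophan, was the lowest cytosolic gene in all 3 lines (20.6, 22.9 and 29.9 CPM per kb), and Mars2, for mitochondrial methionine, the lowest mitochondrial one (0.303, 1.39 and 0.565 CPM per kb). Lars2, for mitochondrial leucine, was the highest mitochondrial gene in every line, at 154 CPM per kb in 4T07, 370.5 in D2A1 and 25.8 in EMT6. Rars2, for mitochondrial arginine, had 147 ± 26.5 CPM per kb in D2A1 p27K high and 85.5 ± 2.97 in D2A1 p27K negative libraries (SD, n = 4 each). In 4T07 and EMT6 the same gene had 9.38 to 11.7 CPM per kb in either gate. The subunits of the phenylalanine enzyme were in opposite order in 4T07 and D2A1. In 4T07, Farsa had 18.6 ± 3.84 CPM per kb in p27K high and 24.3 ± 1.02 in p27K negative libraries, where Farsb had 36.9 ± 2.06 in p27K high and 35.8 ± 2.48 in p27K negative libraries. In D2A1, Farsa had 56.3 ± 4.50 CPM per kb in p27K high and 70.7 ± 2.39 in p27K negative libraries, and Farsb 32.9 ± 2.57 in p27K high and 42.5 ± 2.05 in p27K negative libraries (SD, n = 4 each). In EMT6, Farsa had 53.8 ± 3.17 CPM per kb in p27K high and 63.5 ± 2.02 in p27K negative libraries, and Farsb 49.3 ± 2.30 in p27K high and 68.8 ± 1.6 in p27K negative libraries, so that the order there differed between gates. These levels between lines are across separate runs, and for 4T07 across a different gene table, and were not tested.

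**Figure D1:**
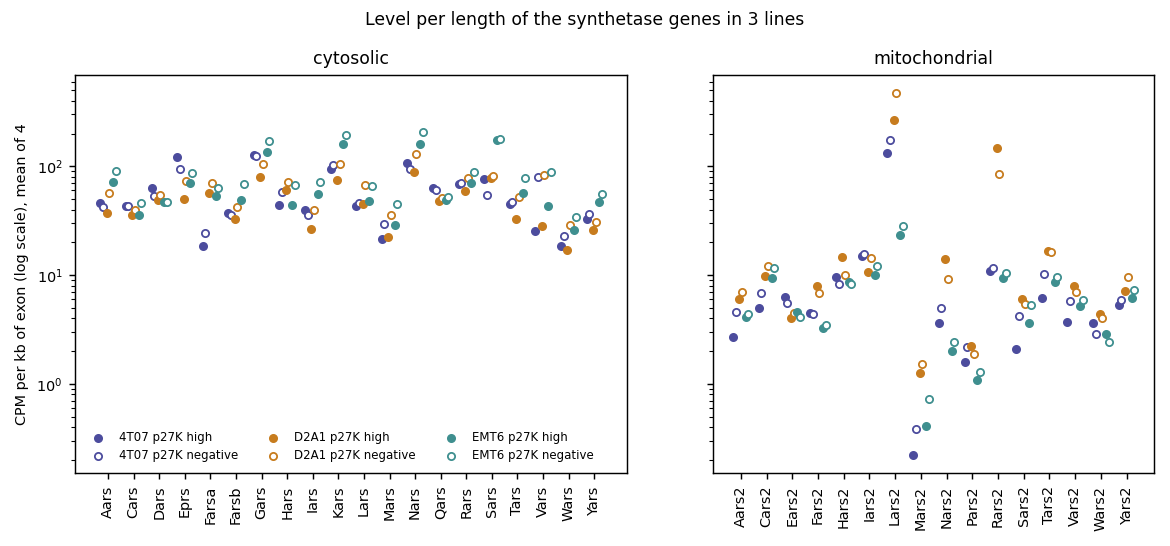
Mean level per length of each synthetase gene (CPM per kilobase of exon, log axis) in p27K high (filled) and p27K negative (open) libraries of 3 lines, 4 libraries per point, without error bars. Most cytosolic genes lie at 20 to 200 CPM per kb and most mitochondrial genes under 20, with Lars2 in all lines and Rars2 in D2A1 above that.

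Within tumours, the classes moved differently in the 3 lines. In D2A1, 14 of 20 cytosolic genes fell in p27K high cells and none rose, and the median log2 change of the class (high over negative) was -0.45. In EMT6, 17 of 20 fell and none rose, with a median of -0.36. In 4T07, 5 of 20 fell and 2 rose, with a median of -0.03. At an unadjusted p under 0.05, and in DESeq2, 0 cytosolic genes rose in D2A1 and 0 in EMT6. A gene was called at an adjusted p under 0.05 in the edgeR quasi-likelihood test with tumour as a block, and over all genes tested 29.5% were called in D2A1 (14.7% fell, 14.9% rose), 49.2% in EMT6 (25.1% fell, 24.1% rose) and 45.7% in 4T07 (23.6% fell, 22.1% rose). The cytosolic share that fell was above that of all genes in D2A1 and EMT6 and near it in 4T07. The median of all genes was 0.02 in D2A1, 0.02 in EMT6 and -0.00 in 4T07. Since these are bulk libraries, fewer cells of a type and less RNA per cell cannot be told apart.

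The mitochondrial class showed another order of the lines. In 4T07, 7 of 16 mitochondrial genes fell and none rose, with a median log2 change of -0.47. In D2A1, 3 fell and 3 rose, near the share of all genes, with a median of 0.08 that was -0.01 without tumour 2. In EMT6, 8 fell and none rose, with a median of -0.23. At an unadjusted p under 0.05, 2 mitochondrial genes (Hars2 and Wars2) rose in 4T07 and 0 in EMT6, and in DESeq2 0 rose in either. Without tumour 2, whose p27K high library stood apart, Hars2 (0.25, adjusted p = 0.0113) and Wars2 (0.49, adjusted p = 0.00178) rose in 4T07. In 4T07 this went with the loss of macrophage and monocyte markers given above, and their part in it was not tested.

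The medians were also taken within each tumour. In p27K high cells of the 4T07 tumours the cytosolic median was -0.04 to 0.00 and the mitochondrial one -0.59 to -0.33, so that the mitochondrial genes were the lower class in 4 of 4 tumours. In D2A1 the cytosolic median was -0.54 to -0.30 and the mitochondrial one -0.04 to 0.20, with the cytosolic genes the lower class in 4 of 4. In EMT6 the cytosolic median was -0.56 to -0.26 and the mitochondrial one -0.30 to -0.11, and the cytosolic minus the mitochondrial median was 0.04, -0.05 and -0.08 in tumours 1, 2 and 4 and -0.45 in tumour 0. The libraries of both gates did not overlap for 14 cytosolic genes in D2A1, all lower in p27K high cells, 17 in EMT6, all lower, and 5 in 4T07, 3 of them lower. Among mitochondrial genes this held for 6 in D2A1 (3 lower), 5 in EMT6 (5 lower) and 7 in 4T07 (7 lower). Over all genes the gates did not overlap for 30.9% in D2A1 (15.6% lower), 34.3% in EMT6 (19.3% lower) and 38.0% in 4T07 (21.0% lower).

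**Figure D2:**
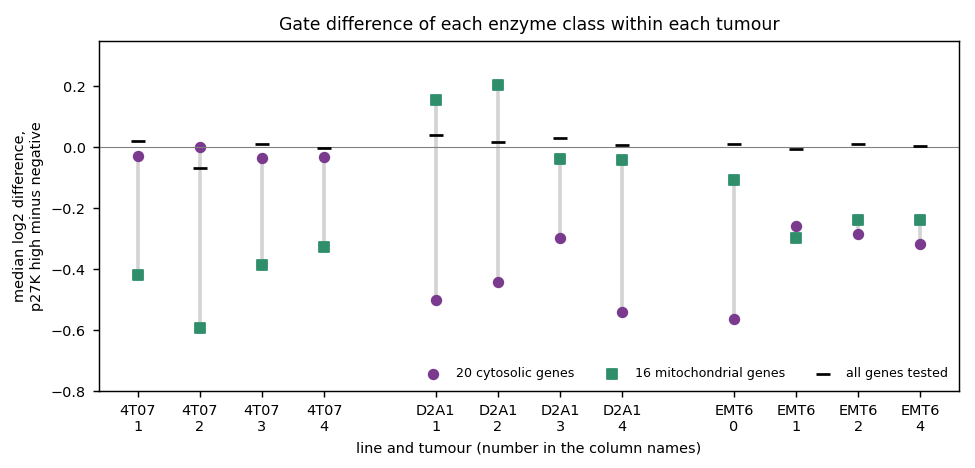
Median log2 difference between p27K high and p27K negative libraries within each tumour for the 20 cytosolic (circles) and 16 mitochondrial genes (squares), with the median of all genes tested (dashes). The squares lie under the circles in all 4 tumours of 4T07 and above them in all 4 of D2A1.

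Several counts moved when a tumour was left out. The cytosolic genes that fell in 4T07 numbered 3 without tumour 1 or without tumour 4, and the mitochondrial ones numbered 4 without tumour 1 or without tumour 3. The mitochondrial median in 4T07 was -0.28 without tumour 2, whose p27K high library stood apart. In D2A1 the cytosolic genes that fell numbered 9 without tumour 1 or without tumour 2, and the mitochondrial ones numbered 0 without tumour 1 and 1 without tumour 2. In EMT6 the cytosolic count was 17 whichever tumour was left out, and the mitochondrial count was 4 without tumour 2 or without tumour 4. With scaling by total counts in place of TMM, edgeR's default scaling between libraries, the median of all 4T07 genes shifted by -0.14, and 33.2% of the 4T07 calls over all genes were rises, against 48.3% with TMM. Under that scaling the 4T07 medians were -0.17 for cytosolic and -0.60 for mitochondrial genes, and 6 and 9 fell.

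**Figure D3:**
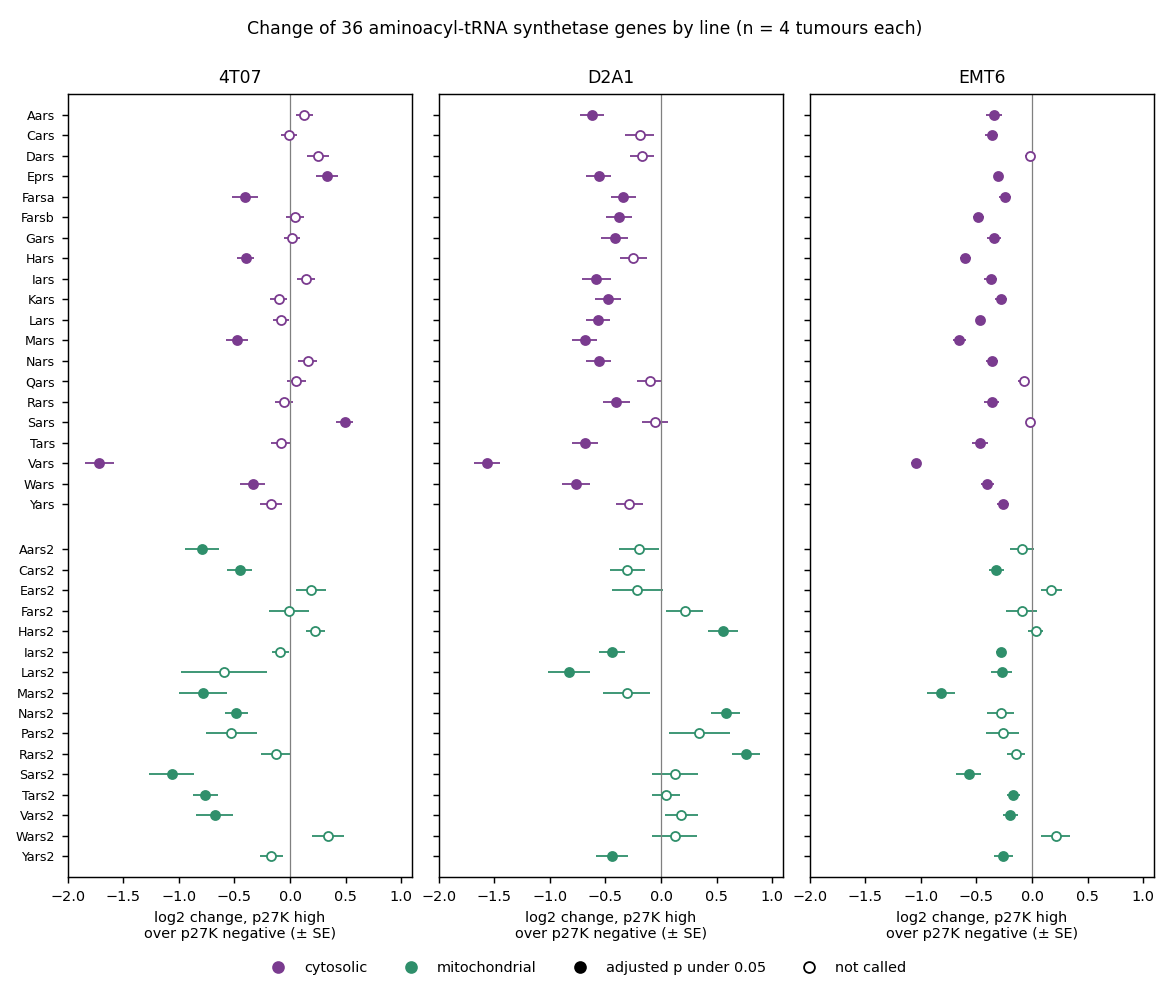
Log2 change (p27K high over p27K negative, ± SE, 4 tumours per line) of the 20 cytosolic genes (upper block) and 16 mitochondrial genes (lower block), filled where the adjusted p was under 0.05. Vars lies farthest to the left in every line, and most cytosolic points lie left of 0 in D2A1 and EMT6 but around 0 in 4T07.

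Vars, the cytosolic valine enzyme, fell the most of all 36 genes in every line. In 4T07 it had 119, 61, 126 and 111 CPM in the p27K high libraries of tumours 1 to 4, against 358, 285, 366 and 320 CPM in the p27K negative libraries. In D2A1 the values were 123, 127, 113 and 104 CPM in p27K high and 337, 336, 333 and 373 CPM in p27K negative libraries, and in EMT6 (tumours 0, 1, 2 and 4) 152, 192, 188 and 188 CPM in p27K high and 327, 377, 395 and 380 CPM in p27K negative libraries. Every p27K high library was under every p27K negative library of all 3 lines. The log2 changes were -1.72 ± 0.13 in 4T07 (SE, n = 4 tumours, adjusted p = 6.49e-05), -1.57 ± 0.12 in D2A1 (adjusted p = 3.99e-07) and -1.04 ± 0.04 in EMT6 (adjusted p = 9.76e-08), or levels 0.304, 0.338 and 0.486 times those of p27K negative cells. No alternative setting or left-out tumour ended these calls, and the 4T07 value was -1.55 without tumour 2. The fall was unequal among lines (adjusted p = 0.0143, edgeR), and larger in 4T07 than in EMT6 (4T07 minus EMT6, -0.65 ± 0.16, adjusted p = 0.011). The test of unequal change gave an adjusted p of 0.0503 without EMT6 tumour 1 and 0.129 without the tumour block.

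Mars, for methionine, is a member of the multi-synthetase complex and also charges the initiator transfer RNA. In EMT6 it had 84.7, 87, 84.5 and 86.3 CPM in p27K high and 144, 121, 142 and 131 CPM in p27K negative libraries, which did not overlap. Its log2 change was -0.65 ± 0.06 in EMT6 (adjusted p = 1.86e-05), -0.69 ± 0.12 in D2A1 (adjusted p = 0.000607) and -0.48 ± 0.10 in 4T07 (adjusted p = 0.00781), lower in 12 of 12 tumours. The 4T07 call was lost without the tumour block.

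The 7 other complex members were Dars (aspartate), Eprs, Iars, Kars, Lars (leucine), Qars (glutamine) and Rars (arginine). Of the 8 in all, 6 fell in D2A1 and 6 in EMT6, with Dars and Qars the exceptions in both, and in 4T07 Mars fell and Eprs rose. The Dars log2 changes were 0.25 ± 0.10, -0.17 ± 0.11 and -0.01 ± 0.04 in 4T07, D2A1 and EMT6, none of them called. Qars had 0.06 ± 0.09, -0.10 ± 0.11 and -0.08 ± 0.05, and it was the single cytosolic gene besides Dars that was called neither in any line nor in the average over the lines. The changes of Iars, Lars and Rars in D2A1 were -0.58 ± 0.13, -0.56 ± 0.11 and -0.40 ± 0.12, and in EMT6 -0.37 ± 0.06, -0.47 ± 0.04 and -0.36 ± 0.07, all called. In 4T07 they were 0.14 ± 0.08, -0.08 ± 0.07 and -0.06 ± 0.08, not called. The Rars call in D2A1 was lost without tumour 1, tumour 2 or tumour 4.

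Eprs went in opposite directions. In 4T07 it had 587, 740, 512 and 535 CPM in p27K high and 478, 473, 458 and 458 CPM in p27K negative libraries. In D2A1 it had 246, 260, 252 and 216 CPM in p27K high and 428, 367, 341 and 310 CPM in p27K negative libraries, and in EMT6 328, 372, 343 and 348 CPM in p27K high and 402, 468, 414 and 436 CPM in p27K negative libraries. The gates did not overlap in any line, with p27K high cells above in 4T07 and below in D2A1 and EMT6. Its log2 change was 0.33 ± 0.10 in 4T07 (adjusted p = 0.0266), -0.56 ± 0.11 in D2A1 (adjusted p = 0.00228) and -0.31 ± 0.04 in EMT6 (adjusted p = 0.000213). The change was unequal among lines (adjusted p = 0.000329), the smallest such p of the 36 genes, and this call held in every alternative setting and without any tumour. The 4T07 rise alone was not called without tumour 1 (0.34, adjusted p = 0.0965), without tumour 4 (0.36, adjusted p = 0.0699), without the tumour block (adjusted p = 0.0539) or with total count scaling (0.20, adjusted p = 0.0965).

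Gars and Kars, the genes that serve both compartments, were lower in p27K high cells of D2A1 and EMT6. Gars had 312, 293, 299 and 297 CPM in 4T07 p27K high and 295, 281, 310 and 299 CPM in 4T07 p27K negative libraries, 195, 189, 227 and 142 CPM in D2A1 p27K high and 269, 271, 235 and 216 CPM in D2A1 p27K negative libraries, and 277, 345, 330 and 344 CPM in EMT6 p27K high and 415, 419, 401 and 401 CPM in EMT6 p27K negative libraries. The gates overlapped in 4T07 and D2A1 and not in EMT6. Its log2 changes were 0.02 ± 0.07, -0.42 ± 0.12 (adjusted p = 0.0211) and -0.34 ± 0.06 (adjusted p = 0.00141). The D2A1 call was lost without tumour 1, tumour 2 or tumour 4 (adjusted p = 0.115, 0.13 and 0.103) and without the tumour block (adjusted p = 0.0545).
Kars had 225, 187, 237 and 207 CPM in 4T07 p27K high and 231, 227, 235 and 224 CPM in 4T07 p27K negative libraries, 160, 182, 176 and 156 CPM in D2A1 p27K high and 263, 262, 200 and 216 CPM in D2A1 p27K negative libraries, and 302, 362, 389 and 375 CPM in EMT6 p27K high and 425, 430, 457 and 415 CPM in EMT6 p27K negative libraries. The gates did not overlap in D2A1 and EMT6. Its log2 changes were -0.10 ± 0.08, -0.48 ± 0.12 (adjusted p = 0.00853) and -0.28 ± 0.06 (adjusted p = 0.00323), and the D2A1 call was lost without tumour 1 or tumour 2 (adjusted p = 0.0905 and 0.0626).

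Wars fell in all 3 lines. It had 64.8, 36.1, 54.2 and 56.1 CPM in 4T07 p27K high and 69.3, 59.3, 67.9 and 65.1 CPM in 4T07 p27K negative libraries, which overlapped. In D2A1 it had 49.2, 54.8, 44.8 and 45.6 CPM in p27K high and 88.3, 95.9, 62 and 84.3 CPM in p27K negative libraries, and in EMT6 58.7, 83.2, 81.2 and 73.2 CPM in p27K high and 86.7, 98, 108 and 96.4 CPM in p27K negative libraries, without overlap. The log2 changes were -0.34 ± 0.11 in 4T07 (adjusted p = 0.0451), -0.76 ± 0.12 in D2A1 (adjusted p = 0.000438) and -0.40 ± 0.06 in EMT6 (adjusted p = 0.000409), lower in 12 of 12 tumours. In 4T07 the change was -0.21 (adjusted p = 0.0174) without tumour 2, and the call was lost without tumour 1, 3 or 4 (adjusted p = 0.0678, 0.121 and 0.085) and without the tumour block (adjusted p = 0.169). Of the other class I enzymes outside the complex, Cars (cysteine) and Yars fell in EMT6, with log2 changes of -0.36 ± 0.06 and -0.26 ± 0.05, and were not called in 4T07 or D2A1.

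Sars, for serine, was the second cytosolic gene that rose in 4T07. It had 305, 270, 272 and 258 CPM in p27K high and 226, 173, 201 and 188 CPM in p27K negative libraries, without overlap. The log2 change was 0.49 ± 0.08 (adjusted p = 0.00184), and no alternative ended the call. In D2A1 and EMT6 it was -0.05 ± 0.12 and -0.02 ± 0.04, not called, and the change was larger in 4T07 than in D2A1 by 0.51 ± 0.12 (adjusted p = 0.00575) and than in EMT6 by 0.53 ± 0.12 (adjusted p = 0.00685). The test of unequal change over the 3 lines (adjusted p = 0.00473) was not called without the tumour block (adjusted p = 0.129).

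Nars, for asparagine, followed the lines as Eprs did, but without a call in 4T07. It had 324, 353, 275 and 301 CPM in 4T07 p27K high and 291, 267, 269 and 290 CPM in 4T07 p27K negative libraries, 272, 289, 273 and 207 CPM in D2A1 p27K high and 395, 391, 428 and 319 CPM in D2A1 p27K negative libraries, and 368, 517, 524 and 482 CPM in EMT6 p27K high and 543, 621, 635 and 603 CPM in EMT6 p27K negative libraries. The gates overlapped in 4T07 and not in D2A1 and EMT6. Its log2 changes were 0.16 ± 0.09 in 4T07, -0.56 ± 0.11 in D2A1 (adjusted p = 0.00179) and -0.36 ± 0.06 in EMT6 (adjusted p = 0.000583), and they were unequal (adjusted p = 0.00146).

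Farsa also fell in all 3 lines. It had 39, 24, 38.8 and 34.3 CPM in 4T07 p27K high and 45.2, 41.6, 44.7 and 45.8 CPM in 4T07 p27K negative libraries, 110, 98.3, 109 and 93.5 CPM in D2A1 p27K high and 128, 134, 124 and 131 CPM in D2A1 p27K negative libraries, and 90.4, 103, 102 and 97.1 CPM in EMT6 p27K high and 121, 112, 116 and 115 CPM in EMT6 p27K negative libraries. The gates did not overlap in any line. The log2 changes of Farsa were -0.40 ± 0.12, -0.34 ± 0.11 and -0.24 ± 0.06 in 4T07, D2A1 and EMT6 (adjusted p = 0.0274, 0.0406 and 0.00622). The Farsa call was lost without tumour 1 or 4 in 4T07 (adjusted p = 0.0625 and 0.0861) and without tumour 1, 2 or 4 in D2A1 (adjusted p = 0.104, 0.213 and 0.154). Farsb, its partner subunit, fell in D2A1 and EMT6 (-0.38 ± 0.11 and -0.48 ± 0.05), and had 0.04 ± 0.08 in 4T07. The Farsb call in D2A1 was lost without tumour 1, 2 or 4.

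The remaining cytosolic class II enzymes were Aars, Hars (histidine) and Tars. Aars fell in D2A1 and EMT6 (-0.62 ± 0.11 and -0.34 ± 0.07) and had 0.13 ± 0.08 in 4T07. Tars did likewise, at -0.68 ± 0.12, -0.47 ± 0.07 and -0.08 ± 0.09. Hars fell in 4T07 and EMT6 (-0.40 ± 0.08 and -0.60 ± 0.05) and had -0.25 ± 0.12 in D2A1, not called. Hars and its mitochondrial counterpart Hars2 lie on opposite strands of chromosome 18 and overlap at their starts, and Mars, Wars, Aars, Farsb, Iars2, Cars2, Vars2 and Nars2 also overlap another annotated gene. Strand use in counting is not given, so reads from such stretches could not be told apart. The cytosolic genes whose windows hold the ATF4 core, shown above, were called in 0 of 5 cases in 4T07, fell in 4 of 5 in D2A1 and in 5 of 5 in EMT6, with medians of 0.02, -0.58 and -0.34. The 8 cytosolic genes whose windows do not hold it had medians of 0.05, -0.36 and -0.26, and 2, 5 and 5 of them fell, while 2 rose in 4T07. These sets were not tested.

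**Figure D4:**
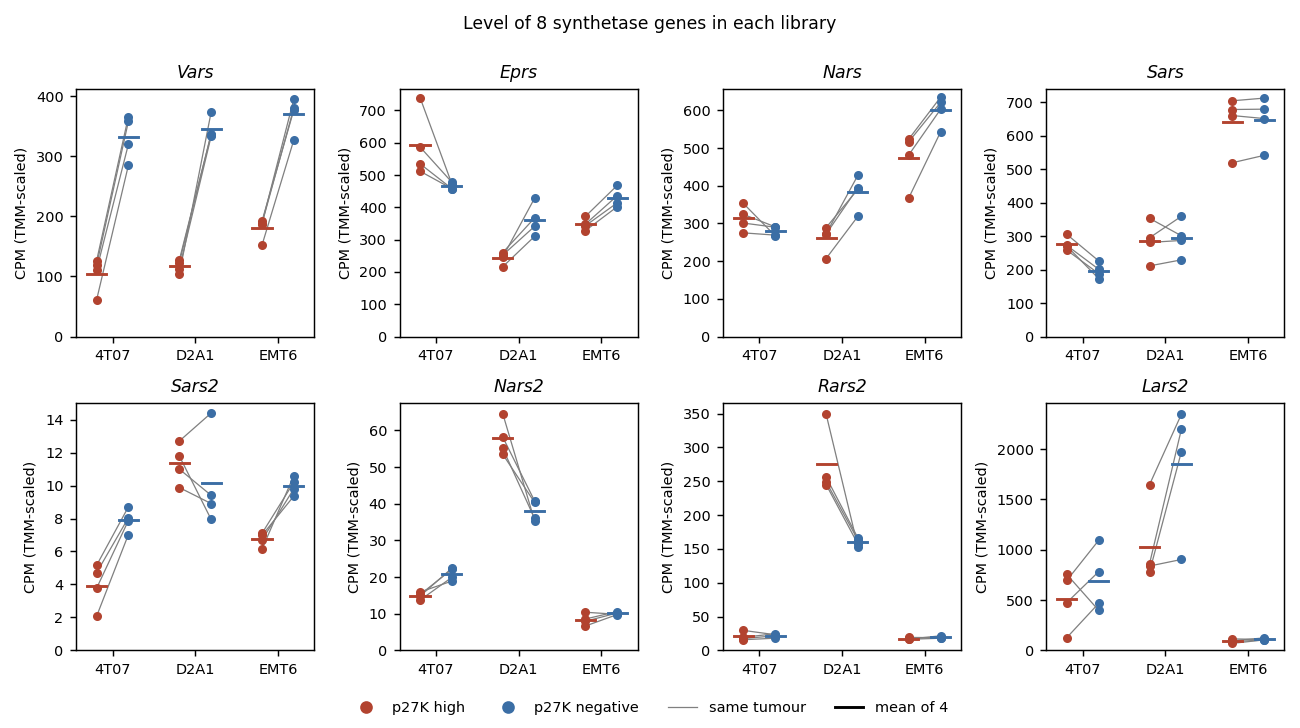
TMM-scaled CPM of 8 synthetase genes in every library, p27K high (red) left of p27K negative (blue), with lines joining the libraries of a tumour and bars at the mean of 4. Vars is lower in p27K high cells of all 12 tumours, Eprs and Nars2 move in opposite directions in 4T07 and D2A1, and the Rars2 level in D2A1 is far above that of the other lines.

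Among mitochondrial genes, 3 rose in D2A1, and with all tumours none in 4T07 or EMT6. Rars2 had 249, 245, 349 and 256 CPM in D2A1 p27K high and 163, 157, 153 and 166 CPM in D2A1 p27K negative libraries. In 4T07 it had 15.7, 29.5, 17.5 and 19.3 CPM in p27K high and 18, 23.1, 21.5 and 24.6 CPM in p27K negative libraries, and in EMT6 16.7, 16.4, 19.1 and 17.9 CPM in p27K high and 21.5, 17.9, 18.8 and 19.3 CPM in p27K negative libraries. The gates overlapped in 4T07 and EMT6 and were apart in D2A1, where the gene was also at its highest. Its log2 change was 0.77 ± 0.13 in D2A1 (adjusted p = 0.000562), -0.12 ± 0.14 in 4T07 and -0.14 ± 0.08 in EMT6. The D2A1 change was larger than that in EMT6 by 0.96 ± 0.17 (adjusted p = 0.00361), and the change in 4T07 was lower than that in D2A1 (a difference of -0.92 ± 0.16, adjusted p = 0.001).

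Nars2, for mitochondrial asparagine, had 58.2, 55.1, 64.6 and 53.5 CPM in D2A1 p27K high and 40.8, 36, 35.4 and 40.4 CPM in D2A1 p27K negative libraries. In 4T07 it had 13.7, 15.9, 14.8 and 15.2 CPM in p27K high and 19.9, 18.9, 22.4 and 22.1 CPM in p27K negative libraries, and in EMT6 10.4, 8.55, 7.93 and 6.64 CPM in p27K high and 9.83, 10.6, 10.2 and 9.77 CPM in p27K negative libraries. The gates were apart in D2A1 and 4T07, in opposite directions, and overlapped in EMT6. Nars2 rose in D2A1 (0.58 ± 0.13, adjusted p = 0.00472), fell in 4T07 (-0.48 ± 0.11, adjusted p = 0.00876) and had -0.28 ± 0.12 in EMT6 (adjusted p = 0.0802). The test of unequal change gave an adjusted p of 0.00044. The 4T07 call was lost without tumour 1 (-0.46, adjusted p = 0.0563) or tumour 3 (-0.44, adjusted p = 0.051).

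Hars2, for mitochondrial histidine, had 48, 45, 50.2 and 54.2 CPM in D2A1 p27K high and 36.4, 26.7, 29.3 and 41.9 CPM in D2A1 p27K negative libraries, which did not overlap. It rose there (0.56 ± 0.14, adjusted p = 0.00807), while the changes in 4T07 and EMT6 were 0.23 ± 0.09 and 0.03 ± 0.07. The D2A1 call was lost without tumour 2 (0.50, adjusted p = 0.0638), and the test of unequal change (adjusted p = 0.0194) without D2A1 tumour 2, without EMT6 tumour 4 and without the tumour block. The p27K negative libraries of D2A1 tumours 1 to 3, on which these 3 rises rest, were the shallow ones, and leaving all of them out would leave 1 tumour. The D2A1 calls of Rars2 and Nars2 held without any one tumour.

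Sars2, for mitochondrial serine, and Aars2, for mitochondrial alanine, fell in 4T07. Sars2 had 4.71, 2.07, 5.16 and 3.77 CPM in p27K high and 8.05, 7.03, 8.71 and 7.88 CPM in p27K negative libraries. Aars2 had 10.9, 5.63, 10 and 9.67 CPM in p27K high and 16.1, 13.9, 15.1 and 16.2 CPM in p27K negative libraries. Neither overlapped, and the library of tumour 2 was the lowest for both. The log2 changes were -1.07 ± 0.20 for Sars2 (adjusted p = 0.00485) and -0.79 ± 0.15 for Aars2 (adjusted p = 0.00489), and both calls held in every alternative, with values of -0.86 for Sars2 and -0.63 for Aars2 without tumour 2. In D2A1 and EMT6, Sars2 had 0.13 ± 0.21 and -0.57 ± 0.11 (adjusted p = 0.00193), and Aars2 had -0.20 ± 0.18 and -0.09 ± 0.11, not called.

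Lars2 varied widely between tumours of 4T07 and D2A1. In 4T07 it had 475, 127, 695 and 754 CPM in p27K high and 782, 467, 1093 and 398 CPM in p27K negative libraries. In D2A1 it had 861, 780, 1647 and 838 CPM in p27K high and 2195, 1972, 2345 and 903 CPM in p27K negative libraries, and in EMT6 114, 95.1, 88.1 and 69.3 CPM in p27K high and 108, 124, 102 and 104 CPM in p27K negative libraries. The gates overlapped in every line. The log2 changes were -0.59 ± 0.39 in 4T07, not called, -0.83 ± 0.19 in D2A1 (adjusted p = 0.00488) and -0.27 ± 0.09 in EMT6 (adjusted p = 0.0342). The D2A1 call was lost without tumour 1 (-0.65, adjusted p = 0.0667), and the EMT6 call without the tumour block, with the stricter filter and without tumour 1, 2 or 4, with a value of -0.17 without tumour 4. In D2A1 the highest levels were in the shallow p27K negative libraries of tumours 1 to 3 (1335433 to 2110563 counts). The next was in the shallowest p27K high library, that of tumour 3 (1647 CPM, 6727594 counts). In tumour 4, with 17970287 counts in p27K high and 15641189 in p27K negative, the log2 difference was -0.11. The part of depth in the D2A1 fall was not tested.

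Tars2, for mitochondrial threonine, and Vars2, for mitochondrial valine, fell in 4T07 and EMT6. Tars2 had 28.1, 16.8, 33.5 and 29.1 CPM in 4T07 p27K high and 48.6, 36.3, 49.4 and 44.2 CPM in 4T07 p27K negative libraries, and 36.4, 38, 41.1 and 34.3 CPM in EMT6 p27K high and 39.7, 39.8, 49 and 40.1 CPM in EMT6 p27K negative libraries. In D2A1 it had 66.6, 74.9, 75 and 74.2 CPM in p27K high and 80.2, 61.8, 69.7 and 71.6 CPM in p27K negative libraries. The gates were apart in 4T07 alone, and the log2 changes were -0.76 ± 0.11 (adjusted p = 0.00167), -0.17 ± 0.06 (adjusted p = 0.0368) and 0.04 ± 0.13 in 4T07, EMT6 and D2A1.
Vars2 had 18.7, 8.91, 19.6 and 18.8 CPM in 4T07 p27K high and 25.7, 22.6, 27.5 and 26.1 CPM in 4T07 p27K negative libraries, and 23.5, 21.4, 23.6 and 23.4 CPM in EMT6 p27K high and 25, 26.6, 28.1 and 25.6 CPM in EMT6 p27K negative libraries. In D2A1 it had 37, 32.5, 33.5 and 37.8 CPM in p27K high and 23, 28.5, 34.3 and 37 CPM in p27K negative libraries. The gates were apart in 4T07 and EMT6. The log2 changes were -0.68 ± 0.16 (adjusted p = 0.0127), -0.20 ± 0.07 (adjusted p = 0.0398) and 0.18 ± 0.15 in 4T07, EMT6 and D2A1, and the 4T07 call was lost without the tumour block. In EMT6, neither call held without the tumour block, with no filter, with the stricter filter or in DESeq2. With a tumour left out, Tars2 was not called without tumour 2 or 4 and Vars2 not without tumour 1, 2 or 4, with adjusted p between 0.0838 and 0.198.

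Mars2 had 4.74, 4.35, 4.99 and 4.37 CPM in EMT6 p27K high and 7.96, 7.45, 8.06 and 9.12 CPM in EMT6 p27K negative libraries, without overlap. It fell in EMT6 (-0.82 ± 0.12, adjusted p = 0.000484) and in 4T07 (-0.78 ± 0.22, adjusted p = 0.0225), and had -0.31 ± 0.21 in D2A1. The 4T07 call was lost without tumour 1, 3 or 4. Cars2 (cysteine) fell in 4T07 and EMT6 (-0.45 ± 0.11 and -0.32 ± 0.07). Iars2 (isoleucine) fell in D2A1 and EMT6 (-0.44 ± 0.11 and -0.28 ± 0.05), as did Yars2 (tyrosine, -0.44 ± 0.14 and -0.26 ± 0.09). The Cars2 call in 4T07 was lost without tumour 1, 3 or 4, and the D2A1 call of Iars2 without tumour 1 or 2. The Yars2 call was lost in D2A1 without tumour 1, 2 or 4 and in DESeq2, and in EMT6 without tumour 0, 2 or 4, without the tumour block and in DESeq2. With no filter on low counts, the D2A1 calls of Farsa, Farsb, Gars, Iars2, Rars and Yars2 were lost, and without the tumour block the 4T07 call of Farsa. Ears2 (glutamate), Fars2 (phenylalanine), Pars2 (proline) and Wars2 (tryptophan) were called in no line, with log2 changes between -0.53 and 0.34.

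For each amino acid with an enzyme of either compartment in these tables, the change of the cytosolic gene was set against that of its mitochondrial counterpart within tumours. This gave 17 pairs, in which Eprs and Fars2 each enter 2 times. The cytosolic change was the lower in 12 of 12 tumours for Vars with Vars2 and for Hars with Hars2, and in 11 of 12 for Wars with Wars2. The mean difference for valine (Vars minus Vars2, log2) was -1.03 ± 0.10 in 4T07, -1.78 ± 0.28 in D2A1 and -0.85 ± 0.15 in EMT6 (SD, n = 4 tumours each). For histidine it was -0.63 ± 0.16, -0.82 ± 0.13 and -0.63 ± 0.19. Serine was the opposite case, with the cytosolic change the lower in 2 of 12 tumours and a difference of 1.57 ± 0.56 in 4T07, -0.23 ± 0.41 in D2A1 and 0.55 ± 0.16 in EMT6. For asparagine (Nars minus Nars2) the sign turned between lines, at 0.64 ± 0.04 in 4T07, -1.16 ± 0.24 in D2A1 and -0.07 ± 0.39 in EMT6. Arginine was at -1.16 ± 0.16 in D2A1 and at 0.07 ± 0.21 in 4T07 and -0.22 ± 0.15 in EMT6. These differences were not tested.

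**Figure D5:**
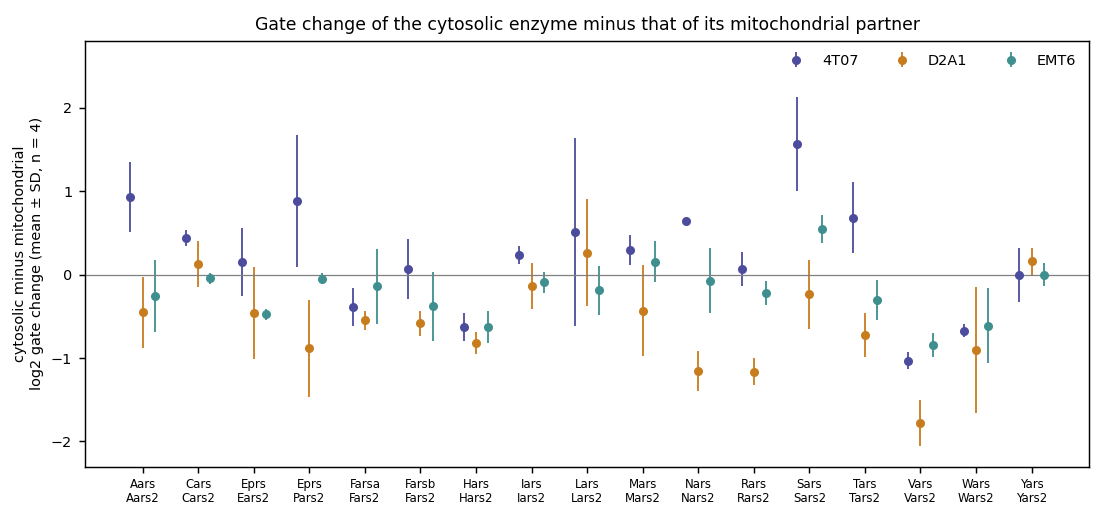
Log2 change (p27K high over p27K negative) of the cytosolic gene minus that of the mitochondrial gene for the same amino acid, as mean ± SD over 4 tumours in each line. The valine and histidine pairs lie under 0 in every line, the serine pair lies highest in 4T07, and D2A1 is lowest for asparagine, arginine and threonine.

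Averaged over the lines with equal weight, 17 of 20 cytosolic genes fell and 1 (Sars, 0.17 ± 0.05) rose, and 8 of 16 mitochondrial genes fell and 3 (Hars2, Rars2 and Wars2) rose. Of all genes tested, 52.4% were called (28.3% rose). The medians were -0.24 for cytosolic and -0.22 for mitochondrial genes, against 0.03 for all genes. Farsa, Mars, Vars, Wars and Yars among cytosolic and Cars2 and Iars2 among mitochondrial genes were lower in p27K high cells of 12 of 12 tumours. With total count scaling 40.9% of calls over all genes were rises, against 54.1% with TMM, and the rises of Sars, Rars2 and Wars2 were not called. The Wars2 call was lost in 11 of 17 alternatives, and those of Cars and Eprs in 4 each.

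The change was unequal among the 3 lines for 17 of 36 synthetase genes, 11 cytosolic and 6 mitochondrial, against 24.5% of all genes. Between 4T07 and D2A1, 16 genes differed (23.3% of all genes), between 4T07 and EMT6, 11 (15.0%), and between D2A1 and EMT6, 3 (3.45%), which were Hars2, Nars2 and Rars2. The 3 comparisons share libraries. Each of the 10 cytosolic genes that differed between 4T07 and D2A1 (Aars, Dars, Eprs, Farsb, Gars, Iars, Lars, Nars, Sars and Tars) had the higher change in 4T07, by 0.39 to 0.86. Of the 6 mitochondrial genes that differed, Nars2, Rars2, Sars2, Tars2 and Vars2 had the lower change in 4T07, with differences of -1.20 to -0.84, and Iars2 the higher, by 0.32 ± 0.10. The calls of Dars (adjusted p = 0.0446) and Gars (adjusted p = 0.0419) were lost in most alternatives.

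The other genes of the pathway were taken from lists, whose counts are set against the share of all genes, which was 22.1% risen and 23.6% fallen in 4T07, 14.9% and 14.7% in D2A1, and 24.1% and 25.1% in EMT6. Of the 28 genes of the ATF4 response, 10 rose and 5 fell in 4T07, 2 rose and 9 fell in D2A1, and 9 rose and 12 fell in EMT6, with medians of 0.05, -0.15 and -0.07. Atf4 itself was not called, at -0.05 ± 0.07, -0.25 ± 0.13 and -0.08 ± 0.05. Asns, which makes asparagine and is a standard ATF4 target, fell in D2A1 (-0.62 ± 0.14) and EMT6 (-0.52 ± 0.07) and had 0.05 ± 0.08 in 4T07, with unequal change among lines (adjusted p = 0.00884). Psat1, of serine synthesis, fell in all lines (-0.96 ± 0.07, -1.73 ± 0.12 and -0.94 ± 0.07), as did Shmt2 (-1.42 ± 0.07, -1.16 ± 0.12 and -0.98 ± 0.09) and Mthfd2 (-0.54 ± 0.08, -1.23 ± 0.15 and -0.86 ± 0.07), both of mitochondrial one-carbon metabolism. The 5 genes that fell in 4T07 were these 3 with Phgdh, also of serine synthesis, and Chac1, which degrades glutathione.

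Of the 20 interferon response genes, 5 rose and 11 fell in 4T07, none of 18 tested rose (also none at an unadjusted edgeR p under 0.05) and 3 fell in D2A1, and 7 rose and 6 fell of 19 tested in EMT6. Cxcl10, a chemokine, fell in 4T07, D2A1 and EMT6 (-1.76 ± 0.11, -0.60 ± 0.18 and -1.02 ± 0.12). Cxcl9, another, fell in 4T07 (-2.16 ± 0.20) and EMT6 (-1.09 ± 0.27) and was not tested in D2A1, while Ifit1, an antiviral gene, rose by 1.15 ± 0.09 in 4T07 and 0.74 ± 0.10 in EMT6. In 4T07 these changes stand beside the macrophage and monocyte marker sums given above, whose part was not tested.

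Of MYC and its partners, 4 of 9 tested genes rose and 1 fell in 4T07, 4 of 10 rose and 2 fell in D2A1, and 5 of 9 rose and 1 fell in EMT6. Myc rose in 4T07 (0.38 ± 0.09) and EMT6 (0.28 ± 0.08) and had -0.18 ± 0.13 in D2A1, not called. Mxd4 (1.23 ± 0.18, 1.38 ± 0.13 and 1.32 ± 0.09) and Mxi1 (0.95 ± 0.08, 1.05 ± 0.12 and 0.59 ± 0.05), which oppose MYC at E-boxes, rose in every line. Mxd3, of the same family, fell in every line (-5.96 ± 0.30, -3.81 ± 0.28 and -3.89 ± 0.13).

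Among the partners of the complex and the transfer RNA exporters, none of 5 rose (also none at an unadjusted edgeR p under 0.05), and 2, 2 and 1 fell in 4T07, D2A1 and EMT6. Xpo5, an exportin of small RNAs, fell in all lines (-0.22 ± 0.07, -0.71 ± 0.14 and -0.57 ± 0.05). Xpot, the exportin of transfer RNA, fell in D2A1 (-0.62 ± 0.11), and Aimp2 fell in 4T07 (-0.31 ± 0.10). Of 11 other charging and proofreading genes, 1 rose in each line and 3, 2 and 3 fell, near the share of all genes that fell. Qrsl1, the catalytic subunit of the amidotransferase that makes mitochondrial glutaminyl-tRNA after Ears2, fell in every line (-1.20 ± 0.23, -0.57 ± 0.18 and -0.77 ± 0.13), while Ears2 was called in none. Sepsecs, which completes selenocysteinyl-tRNA, rose in every line (0.46 ± 0.10, 0.52 ± 0.18 and 0.36 ± 0.09). Aarsd1, an alanyl-tRNA editing gene, fell in 4T07 (-1.48 ± 0.11) and EMT6 (-0.88 ± 0.16) and had -0.18 ± 0.42 in D2A1.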

How the data were processed

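Whole-number gene counts, not normalized, were deposited by the authors in a table per line. Per the labels' protocols, GENEWIZ sequenced the RNA and made the count tables, and per the submitters' processing notes the build was mm10 and DESeq2 was used. Aligner, counter, kit and strand use were given by no label or header. Members and gene lists were chosen with earlier results of these data known. Blank names and 4 repeated date names per table were left out.

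edgeR 4.0.16 (with limma 3.58.1 in R 4.3.3) gave quasi-likelihood tests on TMM-scaled counts after its default filter, blocking on tumour, for each line and, over 24 libraries together, for the average, for equal change and for pairs of lines. Benjamini-Hochberg adjustment ran over all genes tested. The standard error is the change over the square root of F. Exon lengths are merged exons of the GENCODE basic annotation of mm10. Alternatives were DESeq2 1.42.0, RLE and total count scaling, no filter, a stricter filter (5 CPM), no block, and leaving out each tumour. On simulated data, the share of false calls was above the nominal one in 4T07 and EMT6, and below it in D2A1 and in the test of unequal change. The simulated counts had a fixed spread and no differences between tumours, so these shares are not the error rates of the calls above.

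The labels pair both gates of a tumour in all 3 lines, and in 4T07 and D2A1 the column numbers match the titles. The EMT6 columns, numbered 0, 1, 2 and 4 unlike the titles, were paired by number, since deviations from the gate means correlated within each number (0.615, 0.574, 0.813 and 0.648 over 5000 genes) more than across numbers. The p-values reflect how far tumours differ in their gate change. Library values are given for the 3 highest and 3 lowest called members per line with a mean of at least 5 CPM, the 4 with the smallest p between lines, and Wars, Gars and Kars. For Sars, Sars2, Aars2, Hars2, Mars and Mars2 they are given in the line that named them alone. Of each list, the 3 genes with the smallest average p and Atf4, Asns and Myc are named (1 other gene the rule names is not reported here), with Phgdh and Chac1 added after their values were seen.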

Additional observations from a re-analysis of the deposited data

Results flagged for a closer look

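Dixon's test was applied to both gates of all 3 lines for each gene whose library values are given in any line. In 8 of these 108 groups of 4 libraries, the highest or lowest library stood apart from the other 3. Chance gives about 1 in 20. These were Vars in D2A1 p27K negative tumour 4 (373 CPM, highest) and EMT6 p27K high tumour 0 (152 CPM, lowest), Lars2 (1647 CPM, highest) and Rars2 (349 CPM, highest) in D2A1 p27K high tumour 3, Tars2 in D2A1 p27K high tumour 1 (66.6 CPM, lowest) and EMT6 p27K negative tumour 2 (49 CPM, highest), and Vars2 in 4T07 p27K high tumour 2 (8.91 CPM, lowest) and EMT6 p27K high tumour 1 (21.4 CPM, lowest).

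The gate change differed among the 3 lines for 17 members by the F test of the joint edgeR fit, where line and sequencing run cannot be told apart. The adjusted p was 0.000329 for Eprs, 0.00044 for Nars2, 0.00079 for Rars2, 0.00146 for Nars, 0.00184 for Aars and 0.00242 for Tars2. It was 0.00431 for Iars, 0.00467 for Farsb, 0.00473 for Sars, 0.00659 for Lars and 0.0103 for Sars2. It was 0.0142 for Tars, 0.0143 for Vars, 0.0171 for Vars2, 0.0194 for Hars2, 0.0419 for Gars and 0.0446 for Dars.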

How the results depend on the processing

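No member changed sign where it was called, under any alternative run. Without the replicate block, 2 cytosolic genes fell in 4T07 (5 with it), 4 mitochondrial genes in EMT6 (8 with it), and 6 cytosolic genes had unequal change (11 with it), and no other class count moved by over 1.5 times among those that fell. Leaving out a tumour gave 3 to 6 cytosolic and 4 to 8 mitochondrial falls in 4T07, 9 to 17 and 0 to 3 in D2A1, and 4 to 8 mitochondrial falls in EMT6, with 4T07 medians of -0.036 to -0.012 and -0.47 to -0.28. Total count scaling gave 4T07 medians of -0.17 and -0.60, and the stricter filter a cytosolic one of -0.052. Mitochondrial falls in EMT6 numbered 5 with the stricter filter and 5 with DESeq2, and in D2A1 1 with no filter. The cause was not tested. Counts were lowest in D2A1, where Pars2 had 7 in a p27K negative library.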
